A study of Mus musculus with 2 samples.

Results

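Presentation of peptides by MHC class II molecules was followed through 9 genes, picked by symbol from the 31055 features of the count tables. They were the class II chain genes H2-Aa, H2-Ab1 and H2-Eb1, the invariant chain gene Cd74, the peptide-loading genes H2-DMa and H2-DMb1, the class II transactivator gene Ciita, the protease gene Ctss and the costimulatory ligand gene Cd86. All 9 were found once in the features. They were read in 17394 cells of 2 single-cell RNA libraries (10x Genomics, V3 chemistry), of which 7888 came from medulloblastoma after standard proton irradiation and 9506 from medulloblastoma after FLASH proton irradiation, in which the dose is given at an ultra-high rate. Mice of both groups carried Math1-Cre and SmoM2fl/fl: Cre under the Math1 promoter, which is active in cerebellar granule neuron progenitors, switches on an activated Smoothened and so Sonic hedgehog signalling, and the label names no change in the immune cells. The sample labels give 5 Gy for both groups and the series design text gives 10 Gy, so the dose is uncertain, and neither the time after irradiation nor the number of mice is given. No unirradiated tumour was analysed here. Each group was 1 library, so no difference between groups has a replicate check and none was tested. The intervals below are exact 95% intervals and cover counting error only.

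Class II molecules are pairs of an α and a β chain that display peptides from endocytosed proteins to CD4 T cells. The invariant chain encoded by Cd74 holds the new pair until it reaches an endosome, cathepsin S (Ctss) trims the invariant chain, and the H2-DM pair exchanges its last fragment for a peptide. Ciita switches the genes of the chains, Cd74 and H2-DM on together, constantly in dendritic cells and B cells, and after interferon-γ in macrophages and microglia. Resting microglia, the resident phagocytes of the brain, are known for low class II levels.

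The deposited libraries held 55532202 UMIs (unique molecular identifiers, each standing for 1 captured RNA molecule) after standard and 63178900 after FLASH irradiation, and the cells kept had a median of 5571 and 5212. Of the cells, 706 fell into leukocyte clusters, which were made with the 9 genes left out of the clustering, so that class II RNA did not define them. Macrophage-like cells (114 standard, 127 FLASH) had UMIs of 7 and 8 of the 9 macrophage markers (Lyve1 at 0 in both libraries, Cd163 at 0 after standard irradiation), microglia-like cells (60 and 43) of 9 of 9 microglia markers in both libraries, and monocyte-like cells (22 and 48) of 8 of 8 monocyte markers in both. Dendritic cell-like cells (12 and 11) had UMIs of 5 of 9 dendritic cell markers in each library, with Xcr1, Ccr7 and Ccl22 at 0 in both. T cell-like cells numbered 19 and 25 and neutrophil-like cells 14 and 22. The other leukocyte clusters stayed unnamed, led by Mbp, by Nfib and by the cell-cycle gene Birc5. Tumour-lineage cells numbered 5990 and 7327, with all 8 granule neuron progenitor markers detected in both. Of the kept barcodes, 21 occurred in both libraries, and 1 of them was a leukocyte with at least 2 class II chain UMIs.

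H2-Aa, H2-Ab1 and H2-Eb1 encode the I-A α, I-A β and I-E β chains and lie side by side in the MHC on chromosome 17 of mm10, H2-Ab1 at chr17:34257689-34269419 (+), H2-Aa at chr17:34282744-34287823 (−) and H2-Eb1 at chr17:34305867-34316674 (+). Their UMIs, summed as the class II chains, came almost wholly from leukocytes: 98% of the 4986 chain UMIs in both libraries together. Dendritic cell-like cells were 23 cells, 0.132% of all, and held 59.3% of the chain UMIs. Macrophage-like cells held 24.7%, monocyte-like cells 7.62%, the Birc5-led cluster 4.55%, and tumour-lineage cells, which were 76.6% of all cells, held 1.72%. Between libraries the share in dendritic cell-like cells was 71.1% after standard and 46.3% after FLASH irradiation.

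The RNA was concentrated further in a few cells. In the standard library 6 cells and in the FLASH library 7 cells held 50% of all chain UMIs. Every chain level below therefore rests on few cells.

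Levels are given in CPM, the UMIs of a gene per 1000000 UMIs of the class in that library. In dendritic cell-like cells the class II chains stood at 20337 CPM (interval 19423 to 21283, 1859 UMIs) after standard and 16343 (15390 to 17339, 1097 UMIs) after FLASH irradiation. These were the highest levels of any class in both libraries, 32.5-fold and 28.1-fold those of macrophage-like cells. H2-Aa stood at 4660 and 4633 CPM, H2-Ab1 at 9036 and 6555, and H2-Eb1 at 6640 and 5155. The FLASH over standard ratio of the summed chains was -0.32 on the log2 scale (-0.42 to -0.21). A count of 0.5 was added to both sides of every ratio.

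The 23 dendritic cell-like cells were of unlike kinds. Of them, 17 had between 65 and 277 chain UMIs, and none of these 17 had a UMI of Siglech, a lectin gene known from plasmacytoid dendritic cells and microglia. The 5 cells with Siglech UMIs (4 to 11 per cell) had at most 4 chain UMIs each, and 2 to 28 UMIs of Ly6c2. The last cell, from the FLASH library, had 0 chain UMIs and 424 UMIs of the phagocyte lysozyme gene Lyz2. The 17 cells were not alike either. Lyz2 had 623 UMIs in 5 of their 10 standard cells and 17 in 4 of their 7 FLASH cells. Standard cells with 50, 185, 70 and 315 Lyz2 UMIs had 0 of the dendritic cell markers Cd209a, Flt3 and Zbtb46. So had FLASH cells with 4 and 2 Lyz2 UMIs. Cells with Siglech UMIs were 2 of 12 after standard and 3 of 11 after FLASH irradiation. Without them, an alternative chosen after seeing these values, the chains stood at 22029 and 21810 CPM and the log2 ratio was -0.01 (-0.12 to 0.09). The cells set aside had 5 and 0 chain UMIs, but their other UMIs count in the level of the whole class. The ratio of -0.32 over the whole class includes these cells, and the ratio of -0.01 describes the remaining cells.

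**Figure D1:**
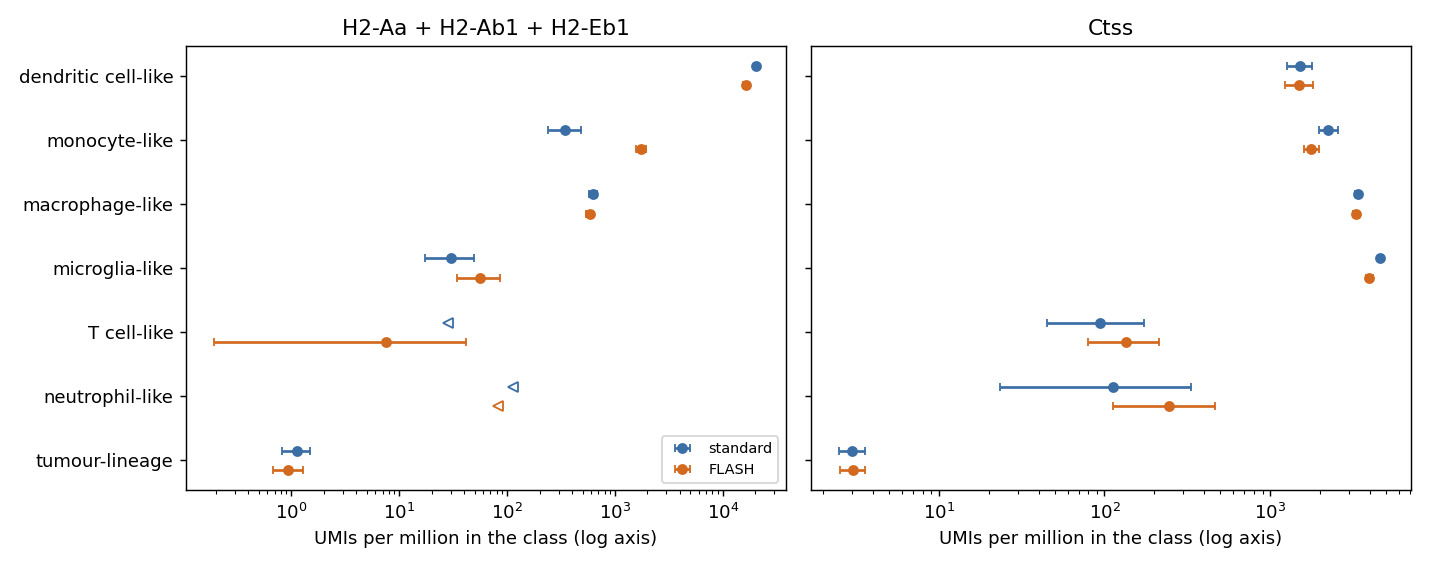
CPM (log axis) of the summed class II chains H2-Aa, H2-Ab1 and H2-Eb1 (left) and of Ctss (right) in 7 cell classes after standard (blue) and FLASH (orange) irradiation. Points carry exact 95% Poisson intervals, and open triangles mark the level of 3 UMIs where none was counted. Chains fall from 20337 CPM in dendritic cell-like cells of the standard library to 1.12 in its tumour-lineage cells, while Ctss is highest in microglia-like cells (4637 in the standard library).

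In macrophage-like cells the chains stood at 627 CPM (577 to 679) after standard and 581 (537 to 628) after FLASH irradiation, a log2 ratio of -0.11 (-0.27 to 0.05). At least 2 chain UMIs, which define a positive cell here, were found in 19 of 114 cells (16.7%, 10.3 to 24.8) and in 15 of 127 (11.8%, 6.76 to 18.7). The same count in tumour-lineage cells, taken as the background, was 1 of 5990 (0.0167%) and 0 of 7327, which allows up to 0.0409% by the limit of 3 counts and has an exact upper limit of 0.0503%. Median depth was 7688 and 8110 UMIs in macrophage-like cells and 6336 and 5769 in tumour-lineage cells, so the macrophage-like shares lay far above that background. With every cell thinned to 2000 UMIs, 15 of 113 and 12 of 126 macrophage-like cells were positive, with 1 cell of each library too shallow to enter.

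Most macrophage-like cells had no chain UMI (88 of 114 and 105 of 127), and the level differed between their clusters. The cluster led by Igfbp4, Pf4 and Mrc1 stood at 613 CPM (537 to 698) after standard and 1661 (1522 to 1809) after FLASH irradiation, with 15 of 47 and 8 of 42 cells positive. Its richest cell held 45 of 230 chain UMIs after standard irradiation, and its 3 richest after FLASH irradiation held 153, 118 and 84 of 525. These 3 FLASH cells had 0, 1 and 0 UMIs of Mrc1, 0, 2 and 0 of Pf4, and 37, 24 and 18 of C1qa. The standard cell had 3 UMIs of Mrc1, 3 of Pf4 and 41 of C1qa. The FLASH level of this cluster thus rests largely on cells with little or no Mrc1 and Pf4 RNA. The cluster led by Gpnmb, a gene of lipid-laden phagocytes, went the other way, 2003 (1803 to 2219) against 270 (215 to 334), with 3 of 25 and 4 of 33 cells positive. In it, 1 standard cell with 294 chain UMIs held 80.5% of the standard count, and that cell had 0 UMIs of C1qa, Mrc1, Pf4 and Cd86 and 128 of Cd74. Leaving out the cell with most chain UMIs in each library, an alternative chosen after seeing the data, moved the macrophage-like log2 ratio to 0.46 (0.25 to 0.67). The cluster led by the interferon-induced gene Ifit3 stood at 30.4 and 135 CPM, with 1 of 20 and 3 of 23 cells positive, and the cluster led by Vcam1 at 0 and 3.28 CPM, with 0 of 22 and 0 of 29. Differences in the positive share between clusters were not tested. Among the positive macrophage-like cells of the standard library, 2 had 3 and 9 UMIs of the B cell receptor gene Cd79a, 0 of C1qa, and 16 and 15 chain UMIs. Over all macrophage-like cells, 6 of 6 B cell markers after standard and 3 of 6 after FLASH irradiation had UMIs, summed to 112 and 69.2 CPM, and 2 of 9 dendritic cell markers in each, summed to 12.5 and 9.22 CPM. Their part in the chain levels was not tested.

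**Figure D2:**
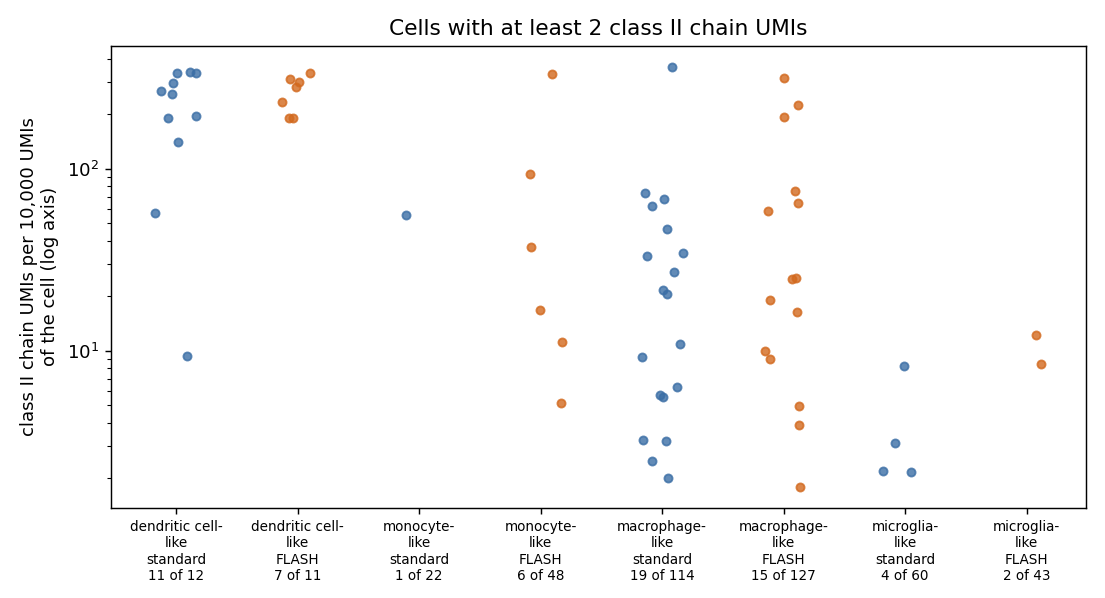
Class II chain UMIs per 10,000 UMIs (log axis) of each cell with at least 2 chain UMIs, for 4 leukocyte classes in each library. Labels under each column give the positive cells of all cells of the class, such as 11 of 12 and 7 of 11 for dendritic cell-like cells. Most dendritic cell-like cells lie at the top, macrophage-like cells spread over the whole axis, and microglia-like cells stay low.

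Among the 4 phagocyte and dendritic cell-like classes, the chain ratio between the libraries was largest in monocyte-like cells. All 35 chain UMIs of the standard library came from 1 of 22 cells, which had 18 UMIs of H2-Aa, 17 of H2-Ab1 and 0 of H2-Eb1. That cell also held all 29 C1qa UMIs of the standard monocyte-like cells, with 7 UMIs of Mrc1, 4 of Ccr2 and 0 of Ly6c2. After FLASH irradiation 6 of 48 cells were positive (12.5%, 4.73 to 25.2, against 4.55%, 0.115 to 22.8), and 2 of them held 158 and 149 of the 345 chain UMIs. The cell with 158 had 16893 UMIs in all, 13 of C1qa and 14 of Ccr2. The cell with 149 had 4494 UMIs in all, 0 of C1qa and 5 of Ccr2. Whether these few cells are monocytes was not tested. The chain level of the class was 345 CPM (240 to 479) after standard and 1756 (1575 to 1951) after FLASH irradiation, a log2 ratio of 2.33 (1.84 to 2.89). H2-Eb1 was at 0 UMIs after standard and at 590 CPM after FLASH irradiation, at least 20-fold higher against a floor of 3 UMIs. Median depth was 4637 and 3851 UMIs, so the positive share was higher in the shallower library. Thinned to 2000 UMIs, 1 of 22 and 4 of 45 cells were positive, with 3 FLASH cells left out. Dendritic cell markers summed to 19.7 and 20.4 CPM in monocyte-like cells, against 689 and 536 in dendritic cell-like cells.

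Microglia-like cells were low. Their chains stood at 30.1 CPM (17.2 to 48.8) and 55.8 (34.5 to 85.3), a log2 ratio of 0.88 (-0.12 to 1.93). These levels came from 16 and 21 UMIs, of which 1 standard cell held 6 and 2 FLASH cells held 9 each. Positive cells were 4 of 60 (6.67%, 1.85 to 16.2) and 2 of 43 (4.65%, 0.568 to 15.8) at median depths of 9126 and 8117 UMIs. After thinning they were 0 of 58 and 2 of 43. No microglia-like cell reached 10 chain UMIs, whereas 11 and 10 macrophage-like cells did. T cell-like cells had 0 and 1 chain UMIs, and neutrophil-like cells 0 and 0, at a median depth of 1776 and 1588 UMIs. With 0 of 14 and 0 of 22 cells positive at that depth (exact upper limits 23.2% and 15.4%), low levels in neutrophil-like cells were not detectable. In the Birc5-led cycling cluster 1 FLASH cell with 212 chain UMIs and 39 of the monocyte receptor gene Ccr2 held 97.7% of its library's count.

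Of 44 leukocytes with at least 10 chain UMIs, 43 had UMIs of all 3 chains, and all 44 had Cd74. These cells were picked by the sum of the 3 chains, so the count does not show that the chains vary together. To show what their starts share, the 130 bases before the transcription start of H2-Aa (chr17:34287824-34287953, − strand) and of H2-Eb1 (chr17:34305737-34305866, + strand) are given from RefSeq, GRCm38.p6, with the letters of an X box-like match (CTNGNAAC) and of a Y box core (TGATTGG) in capitals. Ctss, which did not follow the chains, is set beside them (chr3:95526656-95526785, + strand), with the letters of an interferon response element-like match (GAAA, any 2 bases and GAAA) in capitals.
H2-Aa: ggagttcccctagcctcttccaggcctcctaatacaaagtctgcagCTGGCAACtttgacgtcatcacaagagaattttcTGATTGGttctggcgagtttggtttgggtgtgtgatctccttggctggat
H2-Eb1: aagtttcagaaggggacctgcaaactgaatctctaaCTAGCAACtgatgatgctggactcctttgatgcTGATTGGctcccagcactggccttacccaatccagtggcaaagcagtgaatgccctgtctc
Ctss: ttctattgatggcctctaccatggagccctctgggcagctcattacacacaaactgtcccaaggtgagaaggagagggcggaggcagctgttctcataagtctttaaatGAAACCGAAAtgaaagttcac
The X box is known to bind the RFX complex, the Y box NF-Y, and Ciita to act through both. The motifs were chosen after these sequences had been seen. In H2-Aa the X box-like match began 84 bases and the Y box core 50 bases before the start, and in H2-Eb1 94 and 61 bases. H2-DMb1 had both at 97 and 63 bases. Searched on both strands over the 250 bases before the start, both motifs together occurred in 269 of 32851 RefSeq promoters (0.819%), the X box-like letters in 10.9%, the Y box core in 7.23%, and the interferon response element-like letters in 2.98%. Neither of the first pair was found at the starts of H2-DMa. A match describes letters, not a bound site. The table matched 5 of the 9 genes, and H2-Ab1, Cd74, Ciita and Cd86 had no entry.

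Cd74, the invariant chain gene (chr18:60803848-60812652, +), followed the chains across classes. Dendritic cell-like cells stood at 19407 CPM (18514 to 20331) after standard and 12633 (11797 to 13513) after FLASH irradiation, a log2 ratio of -0.62 (-0.74 to -0.50). That ratio includes the 5 cells with Siglech UMIs, which had 18 and 11 Cd74 UMIs after standard and 0, 21 and 6 after FLASH irradiation. A Cd74 ratio without them was not computed. Monocyte-like cells stood at 758 (598 to 948) and 1725 (1546 to 1919), and macrophage-like cells at 710 (658 to 766) and 807 (754 to 862). Microglia-like cells stood at 102 (76.3 to 132) and 205 (161 to 256), a log2 ratio of 1.01 (0.49 to 1.54) that became 0.09 without the 5 cells richest in Cd74 of each library. Of 193 macrophage-like cells without a chain UMI, 55 had a Cd74 UMI, a level of 77.2 CPM against 8077 in the 21 with at least 10 chain UMIs. Over 13 leukocyte clusters of at least 10 cells, Cd74 had a Pearson correlation of 0.997 with the summed chains and Cd74 on the log2 scale. Cd74 is itself part of that sum, so its value is not a separate comparison with the chains. Clusters are not replicates and share their libraries, and the same measure was 0.830 for H2-DMb1, 0.729 for H2-DMa, 0.351 for Ctss and 0.297 for Cd86.

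**Figure D3:**
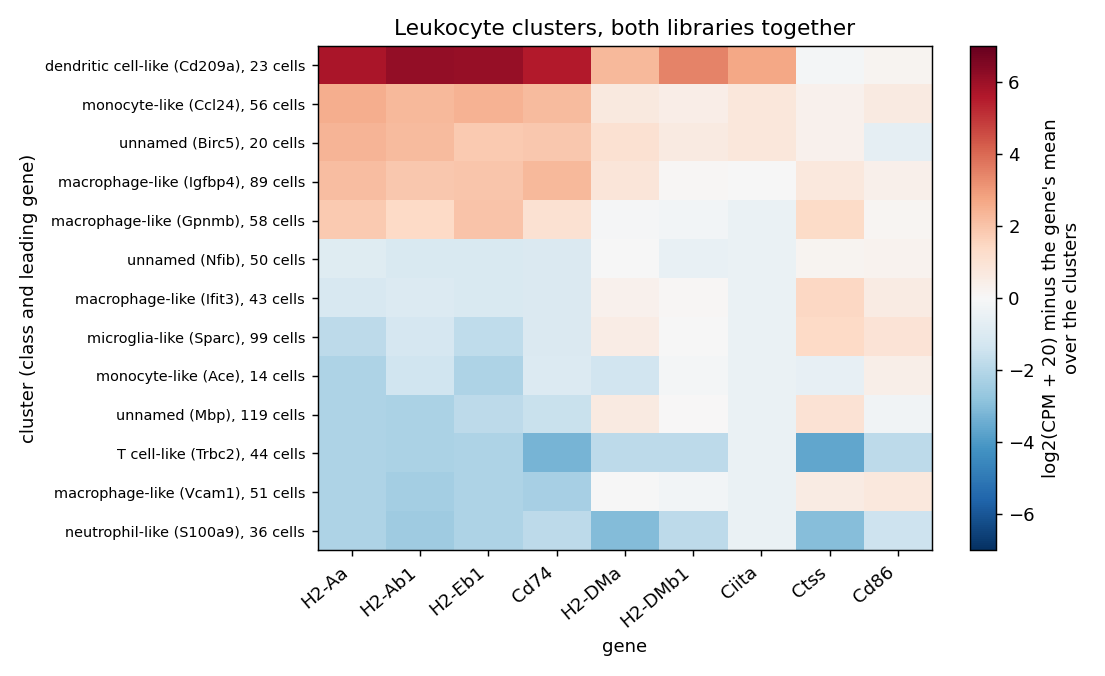
Level of each gene in 13 leukocyte clusters of at least 10 cells, both libraries together, as log2(CPM + 20) minus that gene's mean over the clusters (red above, blue below the mean). Rows are ordered by the class II chain level, with 18646 CPM in the dendritic cell-like cluster at the top, and the chains, Cd74, H2-DMb1 and Ciita darken towards it while Ctss and Cd86 do not.

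H2-DMa (chr17:34119541-34139101, +) and H2-DMb1 (chr17:34153072-34160230, +) encode the pair that loads peptides. Both were highest in dendritic cell-like cells, H2-DMa at 744 CPM (578 to 943) and 819 (617 to 1067), H2-DMb1 at 831 (655 to 1041) and 685 (502 to 914). Unlike the chains, H2-DMa was also found in most microglia-like cells, 44 of 60 and 35 of 43, at 179 (144 to 218) and 250 (202 to 306) CPM, next to 179 (153 to 207) and 196 (170 to 224) in macrophage-like cells. The intervals of microglia-like and macrophage-like cells overlapped in both libraries. The dendritic cell-like level over the macrophage-like one was 4.17-fold and 4.19-fold for H2-DMa and 17.3-fold and 13-fold for H2-DMb1. Within macrophage-like cells, those with at least 10 chain UMIs had more of both, H2-DMa 454 (355 to 572) against 161 (142 to 182) in cells without a chain UMI, and H2-DMb1 177 (117 to 255) against 39.2 (30.2 to 50.1). H2-DMb1 and H2-DMb2 are close copies whose reads the counting could split.

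Ciita (chr16:10480059-10528418, +), the transactivator gene, was near the limit of detection. Dendritic cell-like cells had 13 UMIs in each library, 142 CPM (75.7 to 243) and 194 (103 to 331), in 7 of 12 and 4 of 11 cells. Macrophage-like cells had 3 and 2 UMIs, monocyte-like cells 0 and 7, and microglia-like cells 0 and 0, which allows up to 5.64 and 7.97 CPM by the limit of 3 counts. Of the 17 dendritic cell-like cells with at least 10 chain UMIs 10 had a Ciita UMI, and of the 21 such macrophage-like cells 4 did. At this depth the absence of a Ciita UMI in a single cell tells nothing about that cell.

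Ctss (chr3:95526786-95556403, +), the gene of cathepsin S, ran in another order. It was found in every microglia-like and every macrophage-like cell. Microglia-like cells stood at 4637 CPM (4456 to 4824) and 3978 (3779 to 4185), macrophage-like cells at 3382 (3266 to 3500) and 3286 (3179 to 3396), and monocyte-like cells at 2245 (1963 to 2556) and 1776 (1594 to 1972). Dendritic cell-like cells, highest in the chains, were lowest of these 4 classes at 1510 (1268 to 1784) and 1505 (1226 to 1828), although in the FLASH library their interval met that of monocyte-like cells. Within macrophage-like cells Ctss was 2656 CPM (2409 to 2923) with at least 10 chain UMIs and 3400 (3311 to 3491) without any. By library it was 2371 (2052 to 2725) against 3526 (3392 to 3663) after standard irradiation, and 2974 (2597 to 3391) against 3294 (3176 to 3416) after FLASH irradiation, where the intervals overlap.

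Cd86 (chr16:36603869-36666081, −), whose product gives CD28 on T cells the second signal, was unlike the rest. It stood at similar levels in the phagocyte classes: 130 CPM (108 to 154) and 102 (84.2 to 123) in macrophage-like cells, 147 (116 to 183) and 197 (154 to 247) in microglia-like cells, and 148 (82.7 to 244) and 122 (78.2 to 182) in monocyte-like cells. Only in the FLASH library, and only between microglia-like and macrophage-like cells, did the intervals of 2 of these classes not overlap. Dendritic cell-like cells had 12 and 3 UMIs, 131 (67.8 to 229) and 44.7 (9.22 to 131) CPM, a log2 ratio of -1.39 (-4.02 to 0.34).

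Macrophage-like cells rich in class II chains had little Cd86. A Cd86 UMI was found in 2 of the 21 cells with at least 10 chain UMIs (9.52%, 1.17 to 30.4) and in 108 of the 193 cells without a chain UMI (56%, 48.7 to 63.1), at median depths of 8122 and 7794 UMIs. The level was 31.5 CPM (10.2 to 73.6) against 126 (109 to 144). It was 59.9 (19.4 to 140) against 141 (115 to 171) after standard irradiation, where the intervals overlap, and 0 of 10 cells (exact upper limit 49.2 CPM) against 113 (91.6 to 137) after FLASH irradiation. Inside the Igfbp4-led cluster alone it was 1 of 16 cells against 33 of 62. The 21 cells include 3 standard cells with 0 UMIs of C1qa, Mrc1 and Pf4, and all 3 had 0 of Cd86. Of these, 2 had 3 and 9 UMIs of Cd79a and are among the 16 of the Igfbp4-led cluster. In dendritic cell-like cells with at least 10 chain UMIs, 11 of 17 had a Cd86 UMI. Macrophage-like cells with 1 to 9 chain UMIs entered neither side of the split, and 127 of all 241 macrophage-like cells had a Cd86 UMI. The split was made after the values had been seen and was not tested.

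Summed over the myeloid cells, that is macrophage-like, microglia-like and monocyte-like, the chains stood at 409 CPM after standard and 601 after FLASH irradiation, a log2 ratio of 0.55 (0.41 to 0.70). Single members gave 0.67 for H2-Aa, 0.47 for H2-Ab1, 0.52 for H2-Eb1, 0.61 for Cd74, 0.24 for H2-DMa, 0.28 for H2-DMb1, -0.19 for Ctss and -0.11 for Cd86. Ciita had 3 and 9 UMIs, a log2 ratio of 1.38 (-0.48 to 4.05). Of the 8 members with at least 50 UMIs, 2 (H2-Aa and Cd74) were higher after FLASH irradiation past 1.5-fold and 0 lower, with a median of 0.38. With the members left among the genes that made the clusters these turned to -0.66 and -0.37. Among all 6189 genes with as many UMIs, 2.8% were past 1.5-fold higher and 4.27% lower, with a median of -0.02.

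The share of positive myeloid cells did not differ between the libraries beyond counting error. They were 24 of 196 (12.2%, 8.01 to 17.7) after standard and 23 of 218 (10.6%, 6.81 to 15.4) after FLASH irradiation, at median depths of 7529 and 7186 UMIs. Thinned to 2000 UMIs the shares were 8.29% and 8.41%, with 3 and 4 cells left out. Monocyte-like cells were 22 of the standard and 48 of the FLASH myeloid cells.

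By class, 0 of 8 members were past 1.5-fold in macrophage-like cells (7.73% of 4619 genes in either direction), 1 of 4, Cd74, was higher in microglia-like cells (4.36% of 2339 genes), and 4 of 6, the chains and Cd74, were higher in monocyte-like cells (7.79% of 834 genes). In dendritic cell-like cells, those with Siglech UMIs included, 1 of 7, Cd74, was lower (19% of 401 genes in either direction). The myeloid value was not stable. It was 0.11 (-0.05 to 0.27) without the monocyte-like cells, 1.18 without the richest cell of each library, and -0.30 (-0.38 to -0.21) when all leukocyte classes, dendritic cell-like cells included, were summed. It turned to -0.54 (-0.78 to -0.31) when the members were left among the genes that made the clusters.

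**Figure D4:**
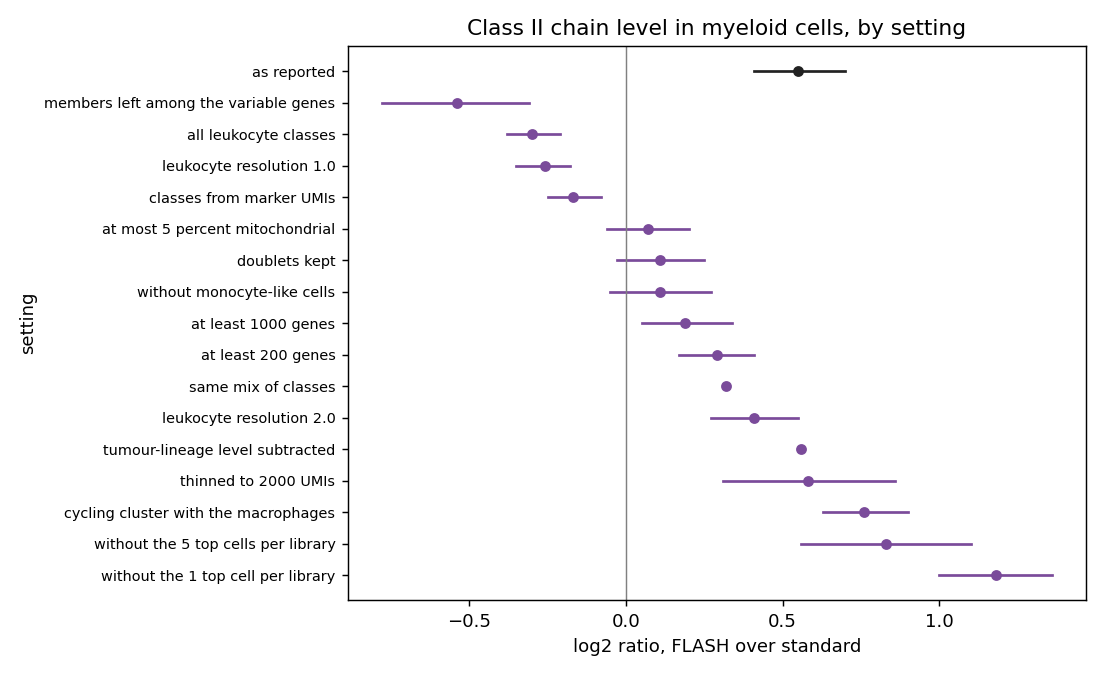
log2 ratio, FLASH over standard, of the summed class II chains in myeloid cells, as reported (top, 0.55) and under 16 alternatives, with exact 95% intervals for counting error where they could be computed. Values run from -0.54 to 1.18, with 12 alternatives above 0 and 4 below.

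In tumour-lineage cells class II RNA was barely detected. The chains gave 44 UMIs over 5990 cells after standard and 42 over 7327 cells after FLASH irradiation, 1.12 (0.813 to 1.5) and 0.938 (0.676 to 1.27) CPM. Cd74 gave 42 and 39 UMIs, 1.07 (0.77 to 1.44) and 0.871 (0.619 to 1.19) CPM, found in 0.684% and 0.532% of cells. The log2 ratio of Cd74 was -0.29 (-0.96 to 0.37). No tumour-lineage cell had more than 2 chain UMIs. Of the 2 members with at least 50 UMIs there, Cd74 and Ctss, 0 were past 1.5-fold (1.84% of 12829 genes).

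Set against the leukocyte level, most members stood at one low ratio in tumour-lineage cells. It was 0.0973% and 0.1001% for the chains, 0.088% and 0.0912% for Cd74, and 0.0951% and 0.1095% for Ctss. The phagocyte genes Lyz2 (0.0802% and 0.077%), C1qa (0.0907% and 0.0904%) and Tyrobp (0.111% and 0.114%), which are no class II genes, stood at about the same ratio, while Apoe, a lipid carrier gene of phagocytes and astrocytes, stood above it (0.154%, 0.1488 to 0.1593, and 0.1579%, 0.1532 to 0.1627). H2-DMa was also above it, at 0.3% (0.19 to 0.45) and 0.234% (0.146 to 0.354). H2-DMa shares 3094 bases with Brd2 on the opposite strand, and Brd2 was at 157 CPM in tumour-lineage cells. Ciita stood at 1.42% (0.386 to 3.63) and 0.615% (0.127 to 1.8), from 4 and 3 UMIs. It shares 25888 bases with Dexi on the opposite strand, which was at 21.5 CPM. Cd86 stood at 0.0642% (0.0132 to 0.1876) and 0.2144% (0.1028 to 0.3943), from 3 and 10 UMIs. No source used here states the strand setting of the counting. Whether opposite-strand reads from the shared bases entered the H2-DMa and Ciita counts is therefore not known here and was not tested.

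**Figure D5:**
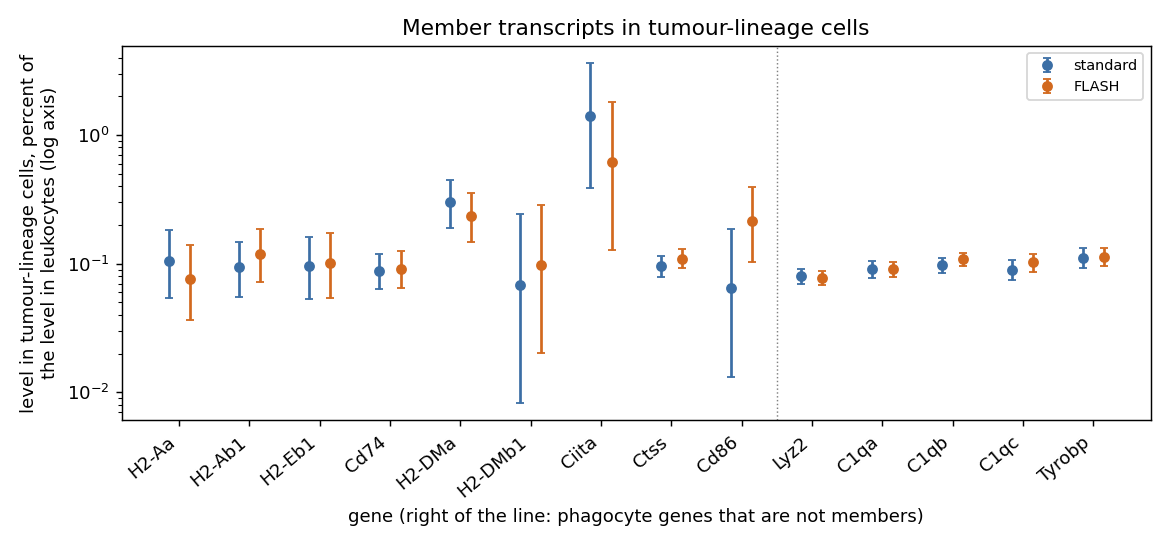
Level of each gene in tumour-lineage cells as a percentage of its level in all leukocytes (log axis) after standard (blue) and FLASH (orange) irradiation, with exact 95% intervals for counting error. Genes right of the dotted line are phagocyte genes outside the class II set. The chains, Cd74, Ctss and the phagocyte genes lie near 0.1%, and H2-DMa, Ciita and, in the FLASH library, Cd86 lie above. In that library the intervals of Cd86 and Ciita, from 10 and 3 UMIs, reach down to 0.103% and 0.127%.

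Of 43 other genes of the pathway, 24 had at least 50 UMIs in myeloid cells. One, Cd4, the class II co-receptor gene, was higher past 1.5-fold after FLASH irradiation (18.2 and 29.6 CPM, log2 ratio 0.69, 0.01 to 1.41). Irf1, an interferon-induced factor that acts on Ciita, was lower at 74.2 and 46.5 (-0.67, -1.11 to -0.25). Ctsl, another protease of the invariant chain, was lower at 2406 and 1547 (-0.64, -0.71 to -0.56), as was Lag3, a receptor for class II, at 78.6 and 50.7 (-0.63, -1.05 to -0.22). Over both libraries Ctsl stood at 5375 CPM in microglia-like and 693 in macrophage-like cells, and Lag3 at 150 and 35.3. Microglia-like cells were 60 of 196 standard and 43 of 218 FLASH myeloid cells. Within macrophage-like cells Cd4, Ctsl and Lag3 were not past 1.5-fold, nor were Ctsl and Lag3 within microglia-like cells. The part of the class mix in the pooled ratios was not tested. Over all 6189 genes 2.8% were higher and 4.27% lower past that fold, and the median over the 24 genes was -0.07, against -0.02 for all genes. Of 4 relatives of the members, H2-DMb2 and H2-Oa stood highest in dendritic cell-like cells, both libraries together: H2-DMb2 at 132 CPM there (21 UMIs) against 2.94 in macrophage-like and 5.5 in microglia-like cells, and H2-Oa, of the pair that restrains H2-DM, at 82 (13 UMIs) against 2.45 and 9.91. Its partner H2-Ob had 4 UMIs in dendritic cell-like cells, too few for an order, and H2-Eb2 had 0 there and 2 in macrophage-like cells. Ifng, the gene of interferon-γ, had 25 UMIs in T cell-like cells, 1 in tumour-lineage cells and 0 in the other 5 named classes read here.

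Outside the pathway, 5 of 7738 genes were most like the summed chains and Cd74 in their pattern over the 13 leukocyte clusters. They were Mgl2 (Pearson correlation 0.880), Eps8 (0.868), Mcub (0.864), Tnip3 (0.857) and Eif1a (0.852). Mgl2, a galactose-binding lectin gene, stood at 744 CPM in the dendritic cell-like cluster, 148 in the Birc5-led cluster, 106 in the Ccl24-led monocyte-like cluster and 47.7 in the Igfbp4-led macrophage-like cluster. It was among the genes that led the dendritic cell-like cluster, so its place there is no separate observation.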

How the data were processed

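The authors deposited raw UMI counts per gene and barcode for each library, which per the file headers come from version 6.1.2 of Cell Ranger, on mm10 per the submitters' processing notes. Barcodes with at least 500 genes and at most 10% mitochondrial UMIs were kept, which left 8461 standard and 10366 FLASH barcodes. Scrublet called 0 doublets in either library, so the 573 and 860 barcodes with the highest scores were removed, at 0.8% per 1000 barcodes. Cells were clustered with scanpy 1.11.5 (2000 variable genes without the members, 30 components, Leiden resolution 1.0, leukocytes again at 1.5) and named from marker lists. Levels are summed UMIs per 1000000 UMIs (CPM) with exact Poisson intervals, shares carry Clopper-Pearson intervals, and ratios carry conditional binomial intervals, all at 95%. The interval functions and the thinning were tested on simulated data. Gene coordinates come from GENCODE M21 (31011 of 31055 features matched). All 9 members are named, and of other pathway genes the 4 with the largest ratio in myeloid cells. Members and lists were chosen with earlier results of these data known.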

Additional observations from a re-analysis of the deposited data

Results flagged for a closer look

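The class II chain ratio of FLASH over standard went opposite ways in leukocyte classes of the same libraries. It was 2.33 on the log2 scale in monocyte-like cells and -0.32 in dendritic cell-like cells. The difference between the classes was not tested, since each group is 1 library. Without the richest cell of each library the monocyte-like value rested on 0 standard and 187 FLASH UMIs, a log2 ratio of at least 5.05 against a floor of 3 UMIs, and the dendritic cell-like value was -0.44. Without the cells with a Siglech UMI the dendritic cell-like value was -0.01 (-0.12 to 0.09), so it was then no longer opposite beyond counting error.

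Chain UMIs also lay in barcodes left out of the reported values, some of which enter under the alternatives with fewer genes or with doublets kept. Barcodes under the minimum of genes held 40 chain UMIs after standard and 9 after FLASH irradiation, 15.8 and 4.03 CPM, above the 1.12 and 0.938 of tumour-lineage cells. Barcodes over the mitochondrial limit held 13 after standard irradiation (4.66 CPM) and 3 after FLASH irradiation (1.16 CPM, 0.239 to 3.38). Barcodes removed for high Scrublet scores held 200 and 232, which was 6.97% and 8.87% of all chain UMIs of their libraries, and 4 and 6 of these barcodes were positive.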

How the results depend on the processing

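The chain ratio of myeloid cells, 0.55 on the log2 scale as reported, was 0.58 after thinning and 0.56 with the tumour-lineage level subtracted. It was 0.11 with doublets kept, 0.19 with at least 1000 genes, 0.29 with at least 200 genes, 0.07 with at most 5% mitochondrial UMIs, 0.83 without the 5 richest cells of each library and 0.32 with the same mix of classes. It was below 0 with the members among the variable genes (-0.54), with classes from marker UMIs (-0.17) and over all leukocyte classes (-0.30). Alternatives chosen after seeing the data gave -0.26 at leukocyte resolution 1.0, 0.41 at resolution 2.0, 0.11 without monocyte-like cells, 1.18 without the richest cell of each library and 0.76 with the cycling cluster counted as macrophages. Resolution 1.0 and classes from marker UMIs put over 2000 chain UMIs per library into the myeloid cells. Cd74 turned to -0.37 with the members among the variable genes and to -0.22 with classes from marker UMIs, H2-Aa to -0.66 with the members among the variable genes, and Ciita to -0.15 after thinning. H2-Ab1 fell below 0 in 3 of 9 alternatives (lowest -0.54), H2-Eb1 in 2 of 9 (-0.38) and H2-DMb1 in 2 of 9 (-0.19). Cd86 rose above 0 in 1 of 9 (0.08), while H2-DMa and Ctss kept their sign in all 9.

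Positive shares, 12.2% and 10.6%, were 17.9% and 16.1% at 1 UMI and lay between 8.29% and 12.7% after standard and between 7.44% and 11.3% after FLASH irradiation under the other alternatives. The Cd74 ratio in tumour-lineage cells, -0.29, was 0.73 after thinning, which left 8 and 17 UMIs, and between -0.72 and -0.23 otherwise. Leaving out a replicate was not possible. No paired analysis was possible because each group is 1 library. Depth limits Ciita most: no class reached 20 UMIs of it in a library.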
